A study of Mus musculus with 6 samples.

Results

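The genes described here are 47 cell cycle genes of the mouse cochlea, 18 that act in G1 and S phase (G1/S, DNA replication) and 29 that act in G2 and mitosis (G2/M). They were taken by symbol from the gene names of the arrays' non-control probes, and all 47 were found among 37317 genes, on 92 probes. A single probe stood for 22 of them, and 25 had more than 1. Cochlear RNA of female C57BL/6 mice aged 6 weeks was measured on 6 one-colour Agilent arrays, 1 for each group of 6 mice. The baseline group had neither noise nor drug. The noise-only group had intense noise for 2 h, and when it was dissected was not stated in the labels. The other 4 groups had the same 2 h of noise followed at once by an intraperitoneal injection, either dexamethasone sodium triphosphate at 10 mg/kg, a synthetic glucocorticoid, or saline, and were dissected after 12 or 24 h. Whether the RNA of 6 mice was pooled on each array was not stated either.

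Dividing cells make most cell cycle transcripts only in the phase that needs them. E2F factors switch on the replication genes at the G1/S border, whereas the mitotic genes are switched on later by B-Myb and FoxM1 together with the MuvB complex, which binds the CHR element of their promoters. Resting cells keep both sets silent, G2/M genes through MuvB in the DREAM complex and G1/S genes largely through E2F sites. Hair cells, most supporting cells and neurons of the adult cochlea are postmitotic, whereas the temporal bone around it contains marrow with dividing blood cell precursors. Glucocorticoids are known to slow division in several cell types.

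The promoters of both sets are shown because these elements are known to distinguish replication from mitosis genes and can be counted without the array signals. RefSeq windows on GRCm38.p6, from 250 bases before to 50 bases after the transcription start, were matched to 38 of the 47 members, 14 G1/S and 24 G2/M genes. Both strands were searched for the CHR element (TTTGAA or TTCGAA or TTTAAA or TTCAAA), the CCAAT box (CCAAT, bound by NF-Y) and an E2F site (TTGGCGC or TTCGCGC or TTCCCGC or TTGCCGC). The 150 bases before the start are printed for 4 G2/M genes whose products drive mitotic entry, chromosome decatenation and exit, 5′ to 3′ on the gene's strand, with every match of the 3 elements in capitals; neighbouring or overlapping matches run together. The windows are Cdc20 at chr4:118437344-118437493 on the minus strand, Ccnb1 at chr13:100786487-100786636 on the minus strand, Plk1 at chr7:122159285-122159434 on the plus strand and Top2a at chr11:99024190-99024339 on the minus strand.
Cdc20: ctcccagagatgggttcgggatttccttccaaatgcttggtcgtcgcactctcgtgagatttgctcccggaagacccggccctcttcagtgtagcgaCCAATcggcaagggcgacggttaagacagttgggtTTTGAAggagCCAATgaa
Ccnb1: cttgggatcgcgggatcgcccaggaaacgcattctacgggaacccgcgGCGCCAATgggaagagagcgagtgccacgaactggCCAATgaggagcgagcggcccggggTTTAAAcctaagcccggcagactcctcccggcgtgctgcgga
Plk1: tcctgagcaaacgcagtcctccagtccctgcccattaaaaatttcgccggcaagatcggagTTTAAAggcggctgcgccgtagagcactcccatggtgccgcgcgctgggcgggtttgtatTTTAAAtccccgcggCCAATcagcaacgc
Top2a: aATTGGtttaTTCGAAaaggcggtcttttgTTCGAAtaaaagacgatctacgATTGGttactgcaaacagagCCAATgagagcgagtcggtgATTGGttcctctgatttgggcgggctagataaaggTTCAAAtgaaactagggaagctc

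As a contrast, 3 replication genes are shown, the helicase subunits Mcm6 and Mcm5 and the ribonucleotide reductase subunit Rrm1, with capitals as above. Their windows are Mcm6 at chr1:128359706-128359855 on the minus strand, Mcm5 at chr8:75109359-75109508 on the plus strand and Rrm1 at chr7:102441545-102441694 on the plus strand. Capital runs other than CCAAT or its reverse complement ATTGG are E2F matches, and no CHR match fell within these 3 printed stretches, although Mcm5 has one elsewhere in its window. The printed genes were picked as clear cases. Within the 150 bases before the start, a CHR match was found for 10 of 24 G2/M and 3 of 14 G1/S genes, and the shares below count the full windows.
Mcm6: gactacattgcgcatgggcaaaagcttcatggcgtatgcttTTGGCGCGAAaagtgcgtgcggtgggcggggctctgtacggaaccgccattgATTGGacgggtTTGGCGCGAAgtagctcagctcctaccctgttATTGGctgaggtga
Mcm5: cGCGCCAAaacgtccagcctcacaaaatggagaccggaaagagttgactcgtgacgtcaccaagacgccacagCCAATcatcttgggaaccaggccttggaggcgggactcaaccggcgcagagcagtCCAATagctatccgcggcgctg
Rrm1: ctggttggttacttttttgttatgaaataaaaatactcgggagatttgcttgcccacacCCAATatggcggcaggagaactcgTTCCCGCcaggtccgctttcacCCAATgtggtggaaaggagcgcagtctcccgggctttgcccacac

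A CHR match stood in the windows of 22 of 24 G2/M genes (91.7%) and 6 of 14 G1/S genes (42.9%), against 31.9% of all 27025 genes with a window. An E2F match was found for 8 of 14 G1/S genes (57.1%) and 3 of 24 G2/M genes (12.5%), against 10.9% of all. The CCAAT box was common in both sets, at 79.2% of G2/M and 57.1% of G1/S genes against 41.1% of all, and 19 G2/M genes (79.2%) held a CHR and a CCAAT match together, against 4 G1/S genes (28.6%) and 14% of all. Promoters differ in base composition, with a median GC content of 59.0% for G2/M, 57.3% for G1/S and 52.7% for all windows. Among all genes whose windows had a GC content from 49.6% to 68.9%, the range of the middle 80% of the members' windows, the shares were 21.6% for CHR, 40.0% for CCAAT and 13.4% for E2F. A match is a stretch of letters and does not show that a factor binds there.

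**Figure D1:**
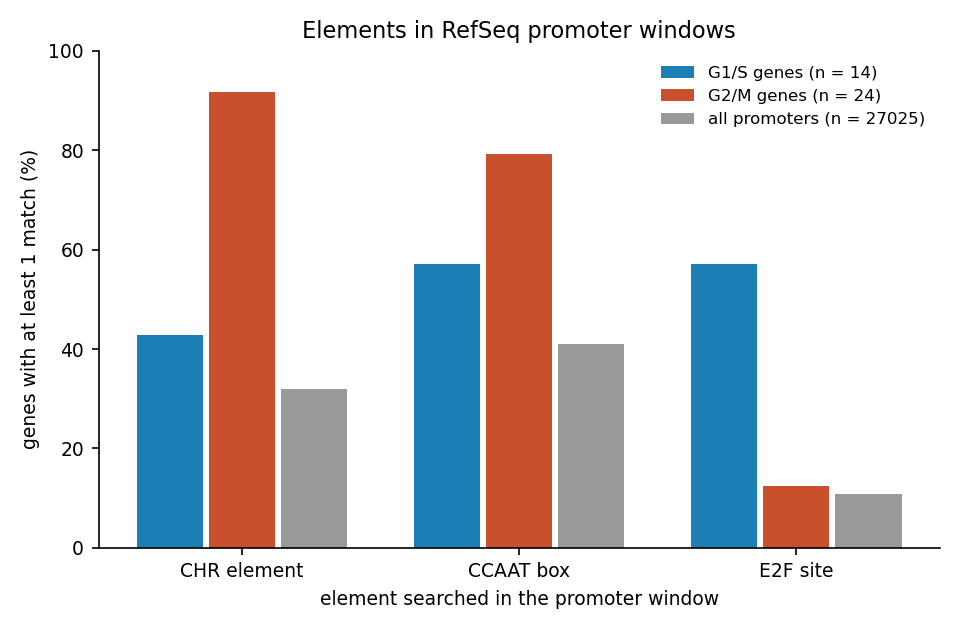
Share of genes (%, vertical axis) with at least 1 match of the CHR element, the CCAAT box or the E2F site in the RefSeq promoter window, for 14 G1/S genes (blue), 24 G2/M genes (red) and all 27025 genes (grey). The CHR share is 91.7% in G2/M against 42.9% in G1/S genes, and the E2F share is 57.1% in G1/S against 12.5% in G2/M genes.

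Signals below are scaled to a common 75th percentile, so that a gene may be compared between arrays; the brightness of 1 gene's probe was not set against another's. Differences are on the log2 scale, and a gene counted as measured in a comparison when its probe was well above background on both arrays. With 1 array per group there is no replicate spread, so single comparisons carry no p-value. The interval after a fold comes from the spot error that the scanning software gives (1.96 errors), and it covers neither animals nor labelling. On mm9, the build of the array files, the probe of Tk1 lies at chr11:117676845-117676904 (minus strand), that of Mki67 at chr7:142881591-142881650 (minus strand) and that of Ccnb1 at chr13:101548722-101548781 (minus strand); the Cdk1 probe spans chr10:68805423-68807832 (minus strand), longer than a probe, so it joins separate stretches of the genome. Exon and UTR positions were not analysed here. The median spot error of a member's difference was 0.204 on the log2 scale. The 12 h arrays lay on a slide of their own with a scan of their own, and the other 4 arrays shared a slide. Dexamethasone was therefore compared with saline within a slide at each time, whereas a difference of a 12 h array from baseline cannot be told apart from the slide and scan. Spike-in controls, RNAs of fixed amount added during labelling, stood 0.10 to 0.82 log2 units higher relative to the 75th percentile than at baseline, most on the saline 12 h array; values scaled on them are given where they matter. Of 12 cochlear markers, 10 were above background on every array, among them Coch and Otof. Slc26a5, which encodes prestin of outer hair cells, was not well above background on any array, and Tecta was so on 5 of 6.

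Of the 45 members measured on all 6 arrays, 33 had their lowest signal at 24 h after dexamethasone, 11 on the noise-only array and 1 at 12 h after dexamethasone. The highest signal was on the saline 12 h array for 36, at baseline for 5 and on the saline 24 h array for 4. The top of this order depended on the scaling. With spike-in scaling 44 of the 45 were highest at baseline and 1 on the saline 24 h array, while the lowest signal was at 24 h after dexamethasone for 38 and at 12 h for 7. On that scale the median of all genes was also below baseline on each of the other arrays, from -0.76 to -0.12. The order was not counted over all genes, so none of these counts has a background.

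**Figure D2:**
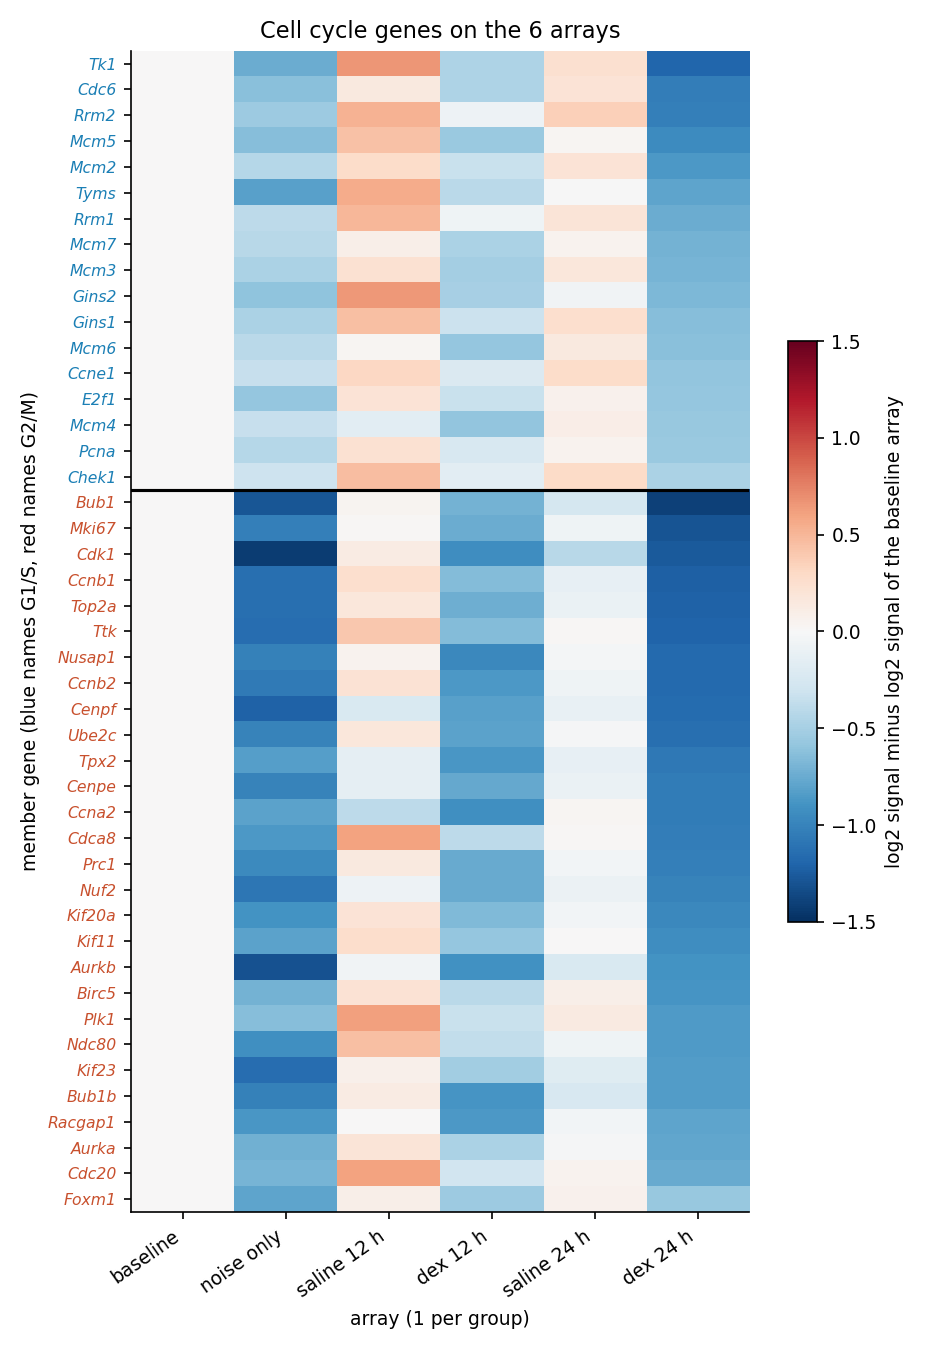
Log2 signal of each member minus its log2 signal on the baseline array (colour, red higher and blue lower) on the 6 arrays, 1 per group, for the 45 members measured on all of them; blue names are G1/S and red names G2/M genes. The noise-only column and both dexamethasone columns are blue throughout, and the noise-only column is darker for G2/M (median -1.0) than for G1/S genes (median -0.47).

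After noise alone, the 46 measured members were all lower than at baseline, while 52.2% of all 24160 measured genes were lower. G2/M genes stood further below baseline than G1/S genes. Their median difference was -1.0 (n = 29, from -1.44 to -0.63), against -0.47 for G1/S genes (n = 17, from -0.81 to -0.31) and -0.01 for all genes. At least 2-fold lower were 15 of the 29 G2/M genes and none of the 17 G1/S genes, with a background of 3.18% of all genes. Lower beyond the spot error were 42 of 46 members, with a background of 12.3%. On the spike-in scale the medians were -1.10 and -0.58. Of the 29 G2/M genes, 22 lay below every G1/S gene, that is below -0.81, and the matching share of all genes is not given here. The difference between the medians, -0.53, was -0.49 among the brighter members and -0.49 among the dimmer ones, so it was present at both signal levels. It was not tested, as the groups have 1 array each.

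Among the replication genes, the helicase and origin factors were close together after noise. The Mcm2 to Mcm7 subunits of the helicase that unwinds DNA, its loader Cdc6 and the Gins1 and Gins2 subunits that activate it had differences from -0.64 to -0.35 (median -0.47, 9 of 9 lower). Mcm5 had a signal of 1956 at baseline and 1258 after noise, 1.55-fold lower (interval 1.18 to 2.05). Mcm4 differed least of these, at 3568 and 2801, and its interval of 0.965 to 1.68-fold included no difference. The 5 genes of nucleotide supply and the clamp had a median of -0.55. Tyms, thymidylate synthase, went from 1489 to 847.0, 1.76-fold lower (1.33 to 2.32), the largest difference among the G1/S genes. Tk1, thymidine kinase of the salvage pathway, was 1568 and 934.5, 1.68-fold lower (1.27 to 2.21), and the sliding clamp Pcna was 1.35-fold lower (1.02 to 1.78). The control genes of S phase entry differed least, with -0.59 for the transcription factor E2f1, -0.34 for cyclin E1 (Ccne1) and -0.31 for the checkpoint kinase Chek1. The other cyclin E gene, Ccne2, was not well above background at baseline but was so after noise, where its signal was at least 1.43-fold higher than the lowest level that could be measured at baseline.

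The mitotic genes with the lowest values after noise came from several steps of mitosis. Kif2c, a kinesin that takes microtubules apart at kinetochores, had a signal of 76.6 at baseline and 28.2 after noise, 2.72-fold lower (1.88 to 3.92). Cdk1, the kinase that starts mitosis, was 355.7 and 133.0, 2.68-fold lower (2.02 to 3.55). Aurkb, the kinase of the chromosomal passenger complex, was 330.0 and 133.9, 2.46-fold lower (1.86 to 3.27). Of the 7 kinetochore and spindle checkpoint genes, 6 were at least 2-fold lower, and their median was -1.08. Bub1, a checkpoint kinase, was 2.44-fold lower (1.83 to 3.25), the kinetochore protein Cenpf 2.32-fold lower (1.75 to 3.06), and Ttk, the kinase that starts the checkpoint signal, 2.20-fold lower (1.63 to 2.98). Cyclins B1 and B2 (Ccnb1 and Ccnb2), the partners of Cdk1, were 2.19-fold and 2.08-fold lower. Less far from baseline were Plk1, the kinase of mitotic entry, at 1.55-fold lower (1.18 to 2.05), Cdc20, the activator of the anaphase-promoting complex, at 1.62-fold lower (1.23 to 2.14), and Birc5, the survivin of the passenger complex, at 1.63-fold lower (1.24 to 2.16). These 3 lay within the range of the G1/S genes.

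Members with more than 1 probe had the same direction after noise on 35 of 35 other probes. Markers of marrow cells and of bone-forming cells were lower on the noise-only array as well. The fixed erythroid precursor list was lower in 9 of 10 genes (median -0.73), the neutrophil precursor list in 9 of 9 (median -1.0), the B cell precursor list in 8 of 8 (median -1.32) and the osteoblast list, bone-forming cells, in 7 of 8 (median -1.07). Summed signals of these lists on the noise-only array were 0.686, 0.462, 0.449 and 0.487 of those at baseline, beside 0.536 for G2/M and 0.725 for G1/S genes. The basal epidermis list was also lower, in 6 of 6 genes (median -2.72). Macrophage markers were lower in 7 of 8 genes (median -0.31). Schwann cell markers (median 0.01) and cochlear markers (median 0.15) were not lower on balance. The part of these cells in the result was not tested. In tissue RNA, fewer cells of a type and less RNA per cell cannot be told apart.

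**Figure D3:**
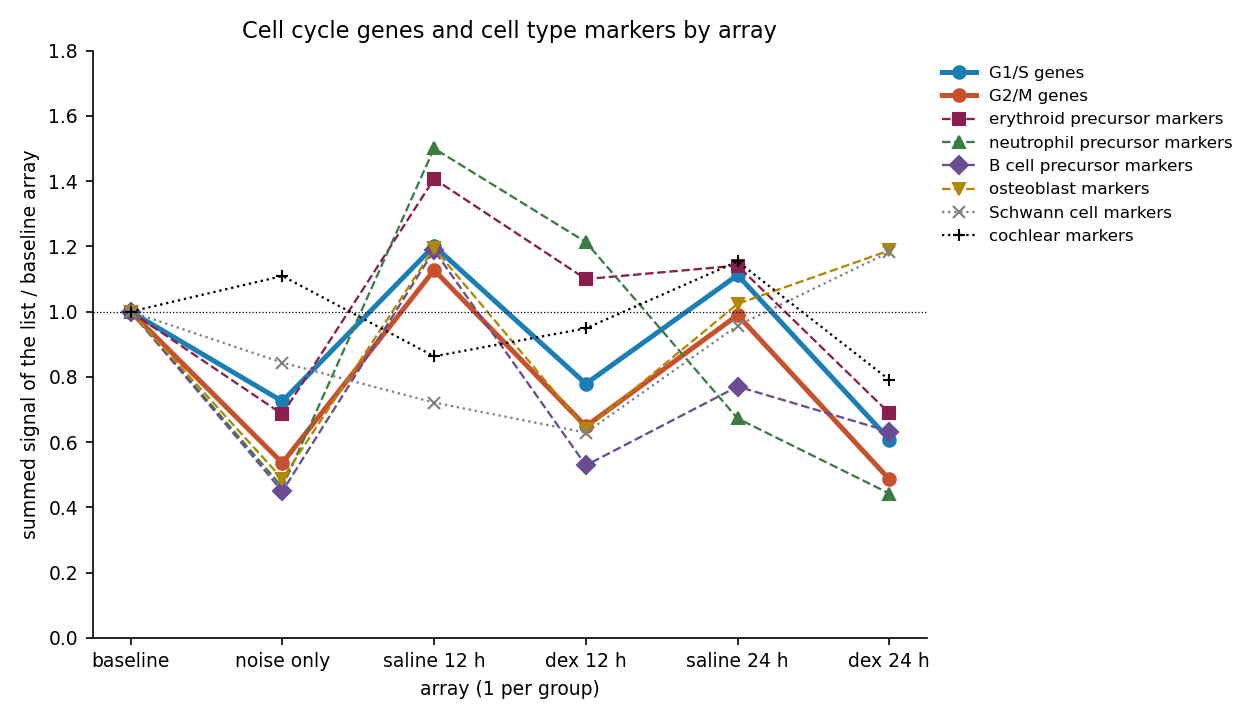
Summed signal of each list divided by its sum on the baseline array (vertical axis, ratio) on the 6 arrays, 1 per group, for G1/S and G2/M genes (thick lines) and fixed cell type markers (thin lines). On the noise-only array G2/M genes are at 0.536 and neutrophil precursor markers at 0.462 of baseline, while cochlear markers are at 1.11.

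On the saline arrays the members were near baseline. At 12 h after noise and saline, 38 of 46 members were higher and 8 lower than baseline, beside 44.8% of all genes lower, with medians of 0.32 for G1/S and 0.12 for G2/M genes against 0.06 for all genes, but with spike-in scaling the medians were -0.50 and -0.69, so the direction depended on the scaling. Higher beyond the spot error were 12 of 46 members, near the background of 22.3%, and none was 2-fold higher or lower (background 4.41% and 3.42%). Tk1 had the largest value with 2478, 1.58-fold above its baseline signal of 1568 (1.2 to 2.09), next to Gins2 at 1.57-fold (1.19 to 2.08). Plk1, Cdc20 and Cdca8, a passenger complex subunit, were 1.53-fold, 1.52-fold and 1.51-fold higher, whereas cyclin A2 (Ccna2) was 1.31-fold lower (0.996 to 1.73). On the spike-in scale these 5 higher genes were below baseline, from -0.22 to -0.16. Ccne2 was at least 2.06-fold higher at 12 h after saline than the lowest level measurable at baseline, on a spot of low signal.

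At 24 h after noise and saline, 23 of 46 members were lower and 23 higher than baseline, beside 48.7% of all genes lower, and none differed by 2-fold (background 1.72% in each direction). The median was 0.18 for G1/S and -0.06 for G2/M genes, against 0.01 for all genes; spike-in scaling gave -0.12 and -0.36. Of the 29 G2/M genes, 15 lay below every G1/S gene, and the distance between the medians was -0.24. The lowest G1/S gene stood at -0.05, and 48.7% of all genes were lower than baseline, so this count is near such a share. Cdk1 was the one member lower beyond the spot error (background 8.80%), 1.34-fold (1.01 to 1.77), with 355.7 at baseline and 266.0 at 24 h. The replication gene Rrm2, the regulated subunit of ribonucleotide reductase, was highest of all members relative to baseline at 1.28-fold, and its interval of 0.971 to 1.69 included no difference. All comparisons with baseline use the same baseline array, so a similar order of both sets in them is not independent. Some marker lists parted from the members at 24 h after saline. The neutrophil precursor list was lower than baseline in 9 of 9 genes (median -0.57) and the B cell precursor list in 8 of 9 (median -0.45). The erythroid list was lower in 3 of 10 (median 0.09) and the osteoblast list in 4 of 8 (median -0.01). Their summed signals were 0.673, 0.771, 1.14 and 1.02 of baseline, beside 0.99 for G2/M and 1.11 for G1/S genes.

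Dexamethasone arrays were lower than the saline arrays of the same time in every measured member. At 12 h this held for 46 of 46 members, beside 52.9% of all genes, and at 24 h for 45 of 45, beside 50.8%. The difference was larger than the spot error in 46 of 46 members at 12 h (background 13.2%) and 45 of 45 at 24 h (background 9.53%). At least 2-fold lower were 7 of 46 at 12 h (background 1.88%) and 15 of 45 at 24 h (background 1.53%). Median differences at 12 h were -0.61 for G1/S and -0.86 for G2/M genes, and at 24 h -0.86 and -0.97, against -0.02 and 0.00 for all genes. With spike-in scaling they were -0.32 and -0.57 at 12 h, and -0.96 and -1.07 at 24 h, so the size at 12 h depended on the scaling and the direction did not. The distance between both sets was -0.25 at 12 h and -0.11 at 24 h, and at neither time did a G2/M gene lie below every G1/S gene.

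**Figure D4:**
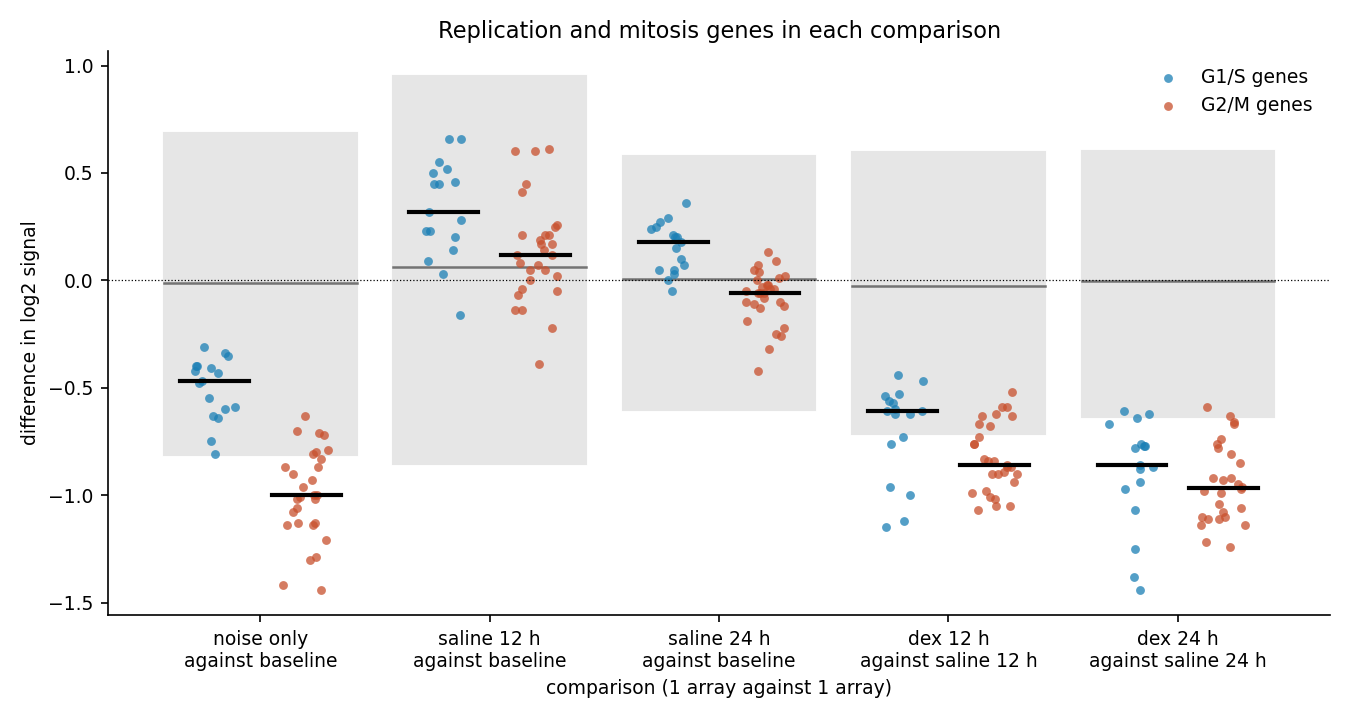
Difference in log2 signal (vertical axis) of each measured G1/S gene (blue points) and G2/M gene (red points) in 5 comparisons of 1 array against 1 array; black bars are medians of the points, grey lines the median of all measured genes and grey boxes the range holding the middle 90% of them. After noise the G2/M median is -1.0 and the G1/S median -0.47, while at 24 h after dexamethasone they are -0.97 and -0.86.

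Tk1 and Rrm2, both of the nucleotide supply, had the largest dexamethasone differences of all measured members at 24 h. Kif2c, not well above background at 24 h after dexamethasone, was not ranked, and its bound, given below, is larger than both. Tk1 had signals of 1568 at baseline, 934.5 after noise, 2478 and 1139 at 12 h after saline and dexamethasone, and 1856 and 684.7 at 24 h after saline and dexamethasone. It was thus highest on the saline 12 h array and lowest at 24 h after dexamethasone, 2.18-fold below saline at 12 h (1.65 to 2.87) and 2.71-fold at 24 h (2.05 to 3.58). Rrm2 had signals of 6271 at baseline, 4294 after noise, 8973 and 5938 at 12 h after saline and dexamethasone, and 8033 and 3083 at 24 h. Its difference was 1.51-fold (1.15 to 1.99) at 12 h and 2.61-fold (1.97 to 3.44) at 24 h, with intervals that overlap in a narrow stretch. The partner subunit Rrm1 was 1.49-fold and 1.91-fold lower, and Tyms 1.94-fold and 1.72-fold.

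Origin and helicase genes were lower by 1.36-fold to 2.22-fold at 12 h and 1.54-fold to 2.38-fold at 24 h. Cdc6, which loads the helicase, had signals of 602.1 at baseline, 388.7 after noise, 665.3 and 435.9 at 12 h after saline and dexamethasone, and 696.7 and 292.8 at 24 h. The 24 h dexamethasone array was its lowest, 2.38-fold below saline (1.8 to 3.15), against 1.53-fold (1.16 to 2.02) at 12 h. Gins2 had the opposite order, with 649.6 and 293.0 at 12 h, 2.22-fold lower (1.68 to 2.93), and 398.8 and 259.2 at 24 h, 1.54-fold lower (1.16 to 2.04). Its saline signal was itself 1.57-fold above baseline at 12 h and 1.03-fold below it at 24 h. Mcm5 was 2.00-fold and 1.96-fold lower, and Mcm2 1.52-fold and 2.10-fold. Smallest at 12 h was Mcm4, at 1.36-fold (1.03 to 1.79), and it was 1.59-fold lower (1.21 to 2.10) at 24 h. The clamp Pcna was lower by 1.39-fold (1.05 to 1.83) at 12 h and 1.53-fold (1.16 to 2.01) at 24 h. Of the control genes, E2f1 was 1.44-fold and 1.56-fold lower, Ccne1 1.45-fold and 1.81-fold, and Chek1 1.54-fold and 1.70-fold. Ccne2, measured on the saline 12 h array, was not well above background at 12 h after dexamethasone and was at least 1.65-fold lower there; at 24 h it was below background on both arrays.

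The mitotic cyclins and their kinase were lower at both times. Ccnb2 had signals of 3489 at baseline, 1675 after noise, 4046 and 1927 at 12 h after saline and dexamethasone, and 3342 and 1554 at 24 h. Noise-only and both dexamethasone arrays were thus its lowest, and it was 2.10-fold (1.59 to 2.77) and 2.15-fold (1.63 to 2.84) below saline. Cdk1 was 386.5 and 186.4 at 12 h, 2.07-fold lower (1.56 to 2.75), and 266.0 and 148.1 at 24 h, 1.8-fold lower (1.35 to 2.4). Ccnb1 was 1.86-fold and 2.15-fold lower. Ccna2, the cyclin of S phase and early mitosis, was 1.44-fold lower at 12 h (1.09 to 1.90), the smallest G2/M difference at that time, and 2.12-fold (1.60 to 2.79) at 24 h. Foxm1, which activates many of these genes, was 1.55-fold lower at each time (1.17 to 2.05).

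Mki67, which coats mitotic chromosomes and serves as a marker of dividing cells, had signals of 10090.4 at baseline, 4972 after noise, 10207 and 6033 at 12 h after saline and dexamethasone, and 9666 and 4099.8 at 24 h. Baseline and saline signals were close together, and the other 3 arrays lay below them. Mki67 was 1.69-fold (1.28 to 2.23) below saline at 12 h and 2.36-fold (1.79 to 3.11) at 24 h. Top2a, the topoisomerase that untangles sister chromatids, was 1.87-fold (1.42 to 2.47) and 2.16-fold (1.64 to 2.85) lower, and each of its 3 other probes had the same direction at both times. Among the passenger and entry kinases, Plk1 was 1.92-fold and 1.98-fold lower, Cdca8 1.99-fold and 2.09-fold, Aurka 1.59-fold and 1.70-fold, and Aurkb 1.82-fold and 1.59-fold. Birc5 was 1.54-fold (1.17 to 2.03) and 1.96-fold (1.49 to 2.59) lower.

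Checkpoint genes differed in which time had the larger difference. Ttk was 2.08-fold lower at 12 h (1.54 to 2.80) and 2.33-fold at 24 h (1.65 to 3.27). Bub1 had signals of 270.5 at baseline, 110.7 after noise, 279.1 and 165.2 at 12 h after saline and dexamethasone, and 225.7 and 102.5 at 24 h, 1.69-fold (1.27 to 2.25) and 2.20-fold (1.63 to 2.98) below saline. Its relative Bub1b, which inhibits the anaphase-promoting complex, went the other way, at 2.02-fold (1.5 to 2.71) and 1.5-fold (1.11 to 2.04). The intervals at both times overlap for each of these genes. Ube2c, the ubiquitin-conjugating enzyme of the anaphase-promoting complex, was 1.97-fold and 2.16-fold lower, and Cdc20 1.86-fold and 1.75-fold. Spindle and cytokinesis genes were lower by 1.51-fold to 2.03-fold at 12 h, with the microtubule-bundling Nusap1 lowest (1.54 to 2.68), and Nusap1 was 2.20-fold lower (1.67 to 2.91) at 24 h. Kif2c was 1.79-fold lower at 12 h (1.25 to 2.55). At 24 h after dexamethasone it was not well above background, which gives at least 2.84-fold below saline.

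The 45 genes measured at both times were compared in size, since the pairs at 12 h and 24 h share no array. The difference was larger at 24 h for 36 of 45, 14 of 17 G1/S and 22 of 28 G2/M genes. The same share was not counted over all genes, so these counts have no background. The median change from 12 h to 24 h was -0.16 for G1/S and -0.10 for G2/M genes, and -0.55 and -0.49 with spike-in scaling. Without spike-in scaling, both medians were smaller than the median spot error of a single difference, 0.204. With it, the median difference of all genes was also lower at 24 h (-0.11) than at 12 h (0.26). A change between the times was not tested. Across the 45 genes, which share the arrays and are not independent, sizes at 12 h and 24 h were weakly related (Pearson 0.23, Spearman 0.25). At least 2-fold lower at both times were 4 genes, Tk1, Ttk, Ccnb2 and Nusap1, beside 0.329% of all genes. Other probes of the same genes had the same direction as the reported probe in 33 of 34 cases at 12 h and 31 of 31 at 24 h. Against baseline the other probes shared the direction in 20 of 37 cases on the saline 12 h array and 18 of 33 on the saline 24 h array, so the direction of a single member there depended on the probe.

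**Figure D5:**
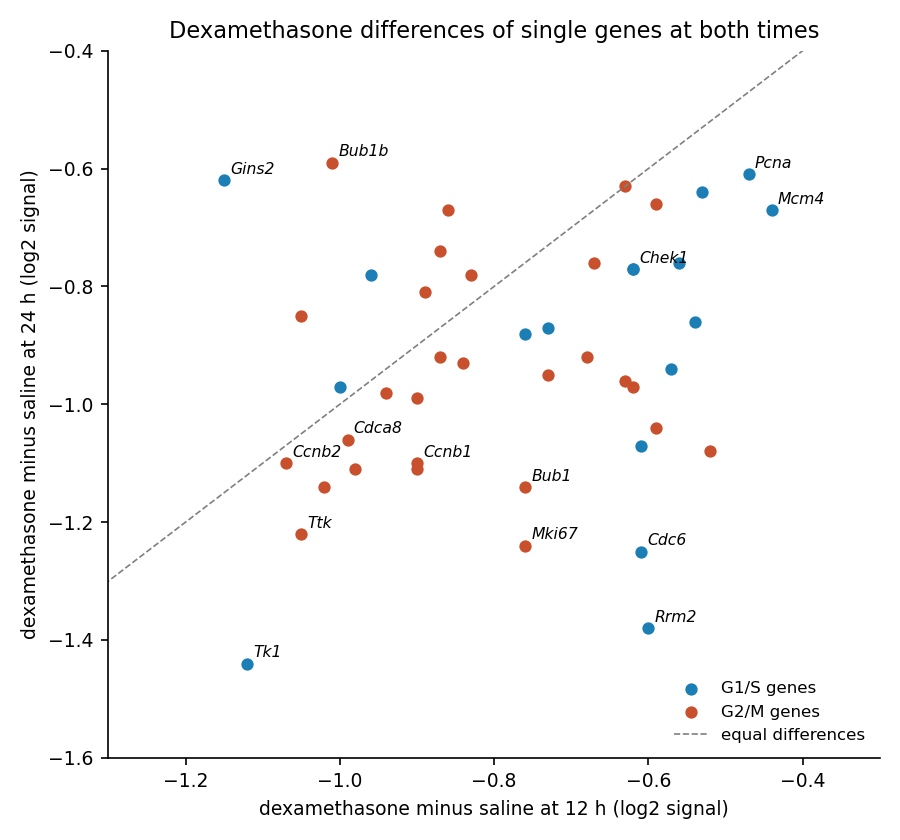
Dexamethasone minus saline difference in log2 signal at 12 h (horizontal axis) and at 24 h (vertical axis) for 45 members, 1 array per group; points below the dashed line of equal values have the larger difference at 24 h. Tk1 lies lowest at -1.12 and -1.44, Rrm2 and Cdc6 are lower at 24 h than at 12 h, and Gins2 and Bub1b are lower at 12 h.

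A fit with limma over the 4 dexamethasone and saline arrays, with time as a term and 1 residual degree of freedom, tested 24766 genes. No member passed an adjusted p of 0.05 and neither did any other gene (background 0.00%); the members' adjusted p ran from 0.155 to 0.276, and the smallest of all genes was 0.154. At an unadjusted p under 0.05, 46 of 46 members were lower, beside 9.07% of all genes. Without the time term that count was 42 of 46, beside 2.1% of all genes. It rested on all 4 arrays and fell further when any 1 was left out as well. The median difference of the members was -0.838 with all 4 arrays. It was -1.042 without dexamethasone 12 h, -0.955 without saline 24 h, -0.762 without saline 12 h and -0.687 without dexamethasone 24 h. The largest difference over both times was that of Tk1, -1.28 (SE 0.138), followed by Kif2c at -1.17, Ttk at -1.14 and Ccnb2 at -1.09. Without a filter on dim probes 35 of 47 members passed, beside 2.55% of all genes, and with spike-in scaling 1 of 46 did, near the 2.19% of all genes. The 4 arrays are the only replication of this contrast, and it takes both times to have a common difference.

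Against baseline, the members at 12 h after dexamethasone had medians of -0.40 for G1/S and -0.74 for G2/M genes, and none was 2-fold lower (background 2.64%). At 24 h the medians were -0.69 and -1.04, 45 of 45 were lower (background 47.5%), and 19 of 45 were at least 2-fold lower (background 2.02%). With spike-in scaling the medians were -0.93 and -1.27 at 12 h, and -1.09 and -1.44 at 24 h. The saline signals at 12 h lay above baseline on the 75th percentile scale, so that a gene such as Rrm2 could be 1.51-fold below saline at 12 h and yet close to baseline, with 5938 against 6271.

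Other genes of the same pathways, from lists that hold no member, were counted in the same way. Of all genes, 52.2% were lower after noise, and 52.9% and 50.8% at 12 h and 24 h of dexamethasone against saline. Of 36 other replication genes, 34 were lower after noise (median -0.40), 33 at 12 h of dexamethasone against saline (median -0.54) and 36 at 24 h (median -0.68). Of the other mitotic genes, 41 of 42 measured were lower after noise (median -0.89), 42 of 43 at 12 h (median -0.81) and 38 of 41 at 24 h (median -0.86). The exception after noise was Cdc25b, a phosphatase that activates Cdk1, which was 2.43-fold higher (1.84 to 3.21), with 3344 at baseline, 8127 after noise and 2504 to 3909 on the other 4 arrays. The remaining E2F factors and B-Myb had medians of -0.65, -0.64 and -0.96 in these comparisons. Mybl2, the gene of B-Myb, was 1.57-fold lower at 12 h and 2.06-fold lower at 24 h, and E2f2 was 2.20-fold lower after noise (1.67 to 2.90).

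By median, the lists of cycle inhibitors, of DREAM subunits and of G1 cyclins and kinases differed less than the members, although single genes differed more. The comparisons are noise against baseline, and dexamethasone against saline at 12 h and 24 h. Of all genes, 52.2%, 52.9% and 50.8% were lower in them, and several counts in these short lists are near such a share. Of the cyclin-dependent kinase inhibitors, 5 of 7 were lower after noise (median -0.11), 5 of 7 at 12 h of dexamethasone against saline (median -0.15, and 0.13 with spike-in scaling) and 4 of 6 at 24 h (median -0.09), with single genes on either side: at 24 h Cdkn1c and Cdkn2c each stood at -0.51. Within them, Cdkn1a, which encodes p21, had signals of 2678 at baseline, 2506 after noise, 3817 and 5271 at 12 h after saline and dexamethasone, and 2465 and 4646 at 24 h. Both dexamethasone arrays were its highest, 1.38-fold (1.05 to 1.82) and 1.88-fold (1.43 to 2.49) above saline, and its limma difference over both times was 0.69 (SE 0.151, adjusted p = 0.201). Pocket proteins and other DREAM subunits were lower in 9 of 11 genes after noise (median -0.08), 7 of 11 at 12 h (median -0.12, and 0.17 with spike-in scaling) and 11 of 11 at 24 h (median -0.27), where Tfdp2, a partner of E2F factors, stood at -0.78 and the pocket protein gene Rbl1 at -0.63. Cyclin D genes and G1 kinases were lower in 5 of 6, 4 of 6 and 6 of 6 genes, with medians of -0.22, -0.19 (0.10 with spike-in scaling) and -0.33. Cdk2, the partner of cyclin E, was highest at baseline with 382.8, and lay at 165.2 after noise, 127.0 and 110.6 at 12 h after saline and dexamethasone, and 244.7 and 185.1 at 24 h.

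Markers of marrow cells differed between dexamethasone and saline as well, and those of bone-forming cells did so at 12 h. Of all genes, 52.9% were lower at 12 h and 50.8% at 24 h. At 12 h the lists were lower in 8 of 10 erythroid genes (median -0.55), 8 of 9 neutrophil genes (median -0.88), 9 of 9 B cell genes (median -1.33) and 7 of 8 osteoblast genes (median -0.55). At 24 h the erythroid list was lower in 9 of 10 genes (median -1.09) and the neutrophil list in 9 of 9 (median -0.68), whereas the B cell list had a median of -0.18 and the osteoblast list of 0.03. Summed signals after dexamethasone were 0.782, 0.809, 0.445 and 0.536 of saline at 12 h, and 0.603, 0.658, 0.821 and 1.16 at 24 h. Beside them stood 0.575 and 0.491 for G2/M and 0.648 and 0.547 for G1/S genes. With spike-in scaling the 12 h sums of the lists were 0.954, 0.987, 0.543 and 0.654 of saline, so the erythroid and neutrophil sums were then close to saline. The list medians at 12 h were then -0.26, -0.59, -1.04 and -0.26. Without Ltf the neutrophil ratio at 12 h was 0.505, and 0.617 with spike-in scaling. Ltf is a bright marker with 56130 after saline and 125712 after dexamethasone, and it was singled out after its values were seen. In the erythroid list, Hemgn was likewise higher at 12 h, with 24620 after saline and 32700 after dexamethasone, and it was not left out. Macrophage markers had medians of -0.33 and -0.23, Schwann cell markers of -0.08 and 0.18, and basal epidermis markers of 0.14 and 0.09. Cochlear markers had medians of 0.15 and -0.30. Levels of these lists were well above background, with 10 of 10 erythroid, 9 of 9 neutrophil and 8 of 10 B cell genes above it on every array and Rag1 on none. Their part in the members' difference was not tested.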

How the data were processed

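The members and all gene lists were chosen with earlier results of these data known. The scanner files hold linear intensity values that the authors made with Agilent Feature Extraction 10.10.1.1, per the file headers and the submitters' processing notes. Background subtraction, detrending across the array and surrogate values for the dimmest spots are part of them. A deposited table gives log2 values; for 100% of probes spotted once it matched the scanner files after shifting each array by a constant, with a tolerance of 0.002. The median of this table was -2.96 at baseline and -2.99 after noise; with dexamethasone it was -2.82 at 12 h and -2.91 at 24 h, and with saline -2.86 and -2.94. Thus its scale, centring and direction are known from the values. Its making is not stated, and it served as an alternative.

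Control spots and outlier spots were left out, spots of a probe were averaged, and each array's log2 signal was centred on its 75th percentile over the non-control probes. No spot was saturated, and 63.0% to 70.3% of probes were well above background. A gene was represented by its probe with the highest mean signal. Its name came from the array files, updated by accession through the RefSeq table of GRCm38.p6 for 32989 probes. Probe positions in the file headers are on mm9. A probe well above background on 1 of 2 arrays gives a bound ("at least"), the bright signal over the higher of the dim signal and the lowest signal well above background.

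Single comparisons of 1 array with 1 array have no test. Dexamethasone was compared with saline over both times with limma 3.58.1 in R 4.3.3 (lmFit, eBayes with trend, Benjamini-Hochberg adjustment over all genes, with a filter for probes above background on 2 or more of the 4 arrays). The scripts were tested on simulated data. Any member could be named; of other pathway lists, up to 4 genes per comparison with the largest difference, and of marker lists the brightest 2 and those not above background throughout. Mybl2 and Cdkn1a fall under this rule in some comparisons and are given in all. Ltf does not fall under it. The number of arrays limits the precision.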

Additional observations from a re-analysis of the deposited data

How the results depend on the processing

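The median differences of G1/S and G2/M genes in 7 comparisons gave 131 values under other settings, of which 121 stayed within the spot error of the reported value. The 10 that did not all came from scaling on the spike-in controls; the 117 values from the other settings (quantile normalization, normexp correction, scaling on detected probes, the series matrix, both filters on dim probes, the mean over probes, and 2 added after seeing the data: brighter members only, and members at their bound) stayed within it. The spot error used is the median over single genes, 0.204 or 0.205, so a median near 0 could change sign within it. For probes spotted once, the series matrix differs from the scanner values only by a constant per array, so it is not an independent setting. With spike-in scaling the medians of saline 12 h against baseline changed sign, from 0.32 to -0.50 (G1/S) and from 0.12 to -0.69 (G2/M). So did the G1/S median of saline 24 h against baseline, from 0.18 to -0.12. The medians of saline 24 h against baseline were -0.12 (G1/S) and -0.36 (G2/M), those of dexamethasone against saline at 12 h -0.32 and -0.57, those of dexamethasone 12 h against baseline -0.93 and -1.27, and those of dexamethasone 24 h against baseline -1.09 and -1.44. Spike-in scaling moves the median of all genes too, to -0.76 for saline 12 h against baseline and 0.26 for dexamethasone against saline at 12 h. In the limma fit over both times, 0 members were called in the reported setting (0 of all genes), 1 of 46 with spike-in scaling (2.19% of all genes) and 35 of 47 without the filter on dim probes (2.55%); the cause was not tested. Leaving out each of the 4 arrays in turn also leaves out the time term and assumes that the lone array varies like the others. The median difference of the members then ran from -1.042 to -0.687, and fewer of them had an unadjusted p under 0.05. The time term already compares dexamethasone with saline within each time; the labels carry no replicate numbers by which to pair arrays further.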

Other observations

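Knstrn, a spindle and kinetochore gene from the list of other mitotic genes, was 2.58-fold higher at 12 h after saline than at baseline (1.96 to 3.41), with signals of 6559 and 16954. With spike-in scaling its log2 difference was 0.55, whereas the list had a median of -0.64. Its signal was 9811 at 12 h after dexamethasone and 4716 to 6624 on the remaining arrays.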
